A study of Zea mays with 36 samples.

Results

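The high-oil and the low-oil maize line were compared in embryos taken 20 days after pollination. The comparison used 6 of the 36 libraries of the series, 3 per line, and the 22801 of 63340 features that reached 1 RPKM in at least 3 of these 6 libraries. RPKM is a read count scaled to the length of the feature and to the reads assigned in the library. The series sampled both lines at 6 ages from 15 to 40 days after pollination, with 3 libraries per line and age. The high-oil group is labelled as a line of high oil content and the low-oil group as a line of low oil content, both as embryo tissue of Zea mays. The labels used here give neither the names of the lines nor the ears or plants behind a replicate. Seeds of all groups had stood in water overnight before the embryos were dissected. Only 1 line stands for each oil level. Oil content and the rest of the genetic background therefore cannot be told apart, and a p-value measures the spread between these libraries, which may be technical.

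The maize embryo holds most of the oil of the kernel, mainly in the scutellum, the large storage organ beside the embryo axis. Oil is stored there as triacylglycerol in oil bodies coated with oleosins, while storage globulins build up in the same cells during seed filling. The middle of seed filling is the time at which growth by cell division gives way to storage. In whole embryos, fewer cells of a type and less RNA per cell cannot be told apart. No table used here pairs the annotated gene IDs with names, so no function is given for them, and the tissue was not checked against marker genes. MicroRNA precursors carry their names.

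The 6 libraries had between 46978399 and 51999427 reads assigned to features, so that 1 RPKM stood for 47.0 to 52.0 reads in a feature of 1000 bases. High-oil replicate 1 stood apart from its group. Its log2 values correlated with those of high-oil replicates 2 and 3 at 0.952 and 0.953, while replicates 2 and 3 correlated with each other at 0.982. Its mean correlation with the 25-day libraries of the same line was 0.944, against 0.913 and 0.915 for the other two. Within the low-oil line the 3 pairs correlated at 0.962 to 0.972. In high-oil replicate 1, 78 features lay more than 2 log2 units above both partners and 37 lay as far below, where the partners were within 1 log2 unit of each other. In each of the other 5 libraries these counts were at most 14 and 19.

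High-oil replicate 1 also lay further along the change from 15 to 25 days than any other 20-day library. This position was read from 918 features that rose and 2293 that fell between 15 and 25 days in both lines, by at least 1 log2 unit and without overlap of the 3 libraries of either age. These features were chosen by their 15-day and 25-day values, among the 22801 that had passed the filter on the 20-day libraries. The 20-day values thus had a part in which features could enter, though not in the direction assigned to them. On a scale where the 15-day mean of a line is 0% and its 25-day mean is 100%, the high-oil libraries stood at 69.5%, 49.2% and 50.1%, and the low-oil libraries at 47.4%, 50.2% and 52.9%. Apart from high-oil replicate 1, the libraries of both lines were thus close to the middle of the interval. Results are given below with and without that library where it moves them.

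**Figure D1:**
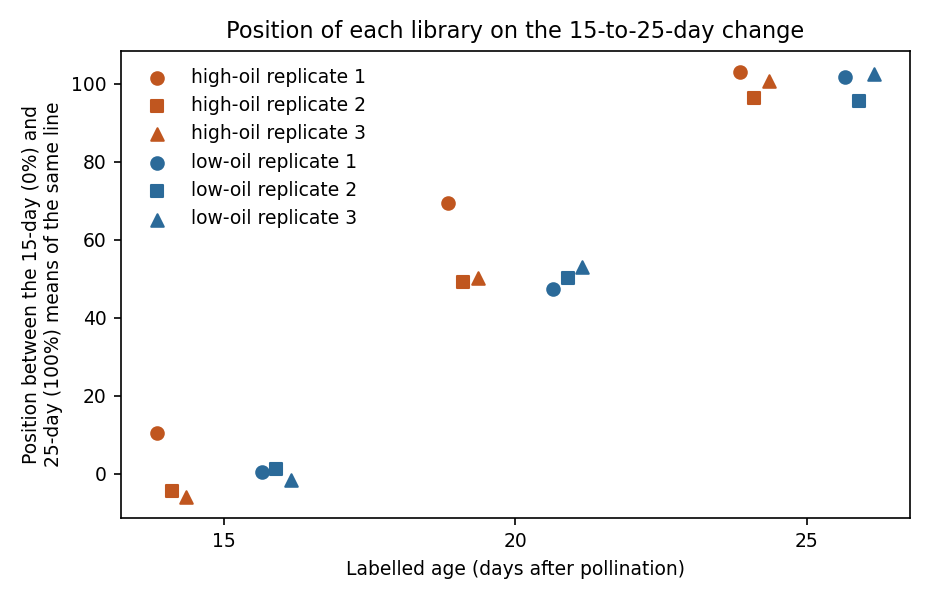
Position of each library (y axis, percent) between the 15-day and the 25-day mean of its own line, by labelled age in days after pollination (x axis), with a marker for each replicate, high-oil in orange and low-oil in blue. High-oil replicate 1 stands at 69.5% at 20 days, and the other 5 libraries of that age lie between 47.4% and 52.9%.

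The first question was how far the embryos of the lines differed at 20 days. The high-oil line had 802 features above and 881 below the level of the low-oil line, 7.38% of the 22801 tested (limma on log2(RPKM + 1), adjusted p below 0.05 and a difference of at least 1 log2 unit). The median difference was 1.81 log2 units among the higher features and -1.66 among the lower ones, against -0.03 over all tested features. A difference of at least 3 log2 units was reached by 141 of the higher and 112 of the lower features, and one of at least 5 by 16 and 9. The 3 libraries of one line did not overlap the 3 of the other in 1658 of the 1683 called features, and in 28.5% of all tested features. Without high-oil replicate 1 the counts were 819 higher and 942 lower (7.72%), and 1514 of the 1683 calls were made again in the same direction.

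**Figure D2:**
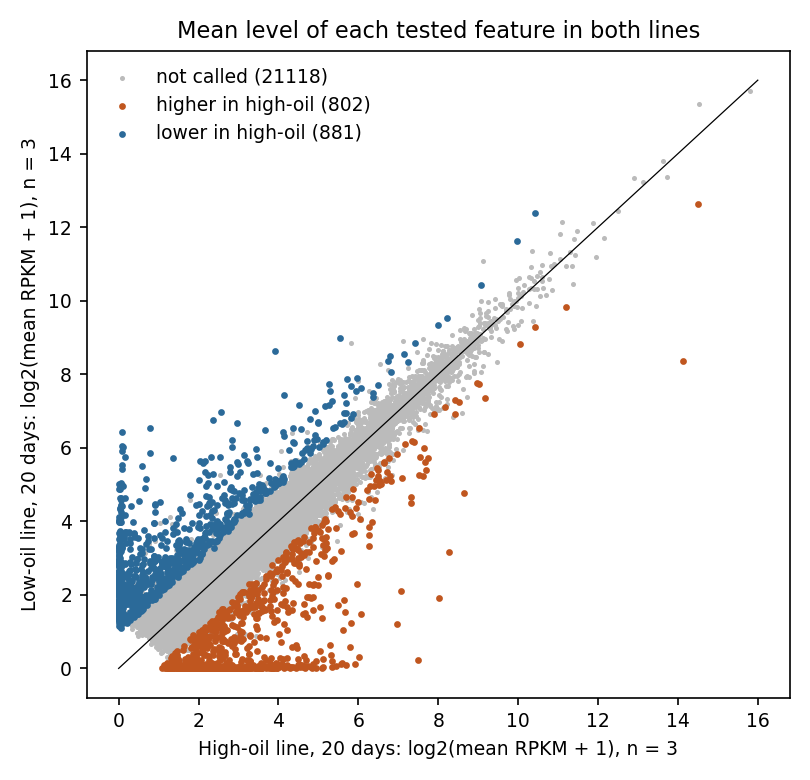
Mean level of each tested feature as log2(mean RPKM + 1) in the high-oil line (x axis) and the low-oil line (y axis) at 20 days, 3 libraries each, with the line of equal levels. The 802 features called higher in the high-oil line are orange, the 881 called lower are blue, and both sets include features near 0 in the other line.

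The share called depended on the level and the length of the features. Among features with a mean below 3 RPKM, 13.7% were called (682 of 4989), against 7.18% at 3 to 10 RPKM and 4.48% at 10 to 30 RPKM. From 30 to 1000 RPKM it stayed between 4.21% and 4.37%. The share below 3 RPKM partly depends on the filter, which a feature of low mean can pass through its level in 1 line. Of features with a read, 399 of 19978 with a mean below 1 RPKM and 4590 of 4876 at 1 to 3 RPKM had passed it. With every feature that had a read tested, 12.37% were called at a mean of 1 to 3 RPKM and 1.447% below 1 RPKM. At 3 to 10 RPKM, where 7718 of 7721 such features had passed the filter, it was 6.80%. By length, 14.9% of the features under 500 bases were called and 3.36% of those of 2000 bases or more. The same order held within the annotated gene IDs alone, with 12.7% under 500 bases and 2.84% at 2000 bases or more. Lengths were recovered from the RPKM values.

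Among features that passed the filter, those with no annotation ID were called between the lines more often than annotated genes. The table gives such features a running number. Of the 1836 tested, 450 were called (24.5%), with 254 above and 196 below the low-oil line. Of the 20785 annotated gene IDs 1208 were called (5.81%), with 531 above and 677 below it. The background over all features was 7.38%. The size of this gap depended on the filter. It was 14.77% against 5.476% among features with 1 RPKM in 3 of all 36 libraries, and 5.267% against 3.978% among all features with a read at 20 days, where 9107 of 10879 running numbers had a mean below 1 RPKM. The gap was seen at similar levels up to 30 RPKM. Below 3 RPKM 282 of 1085 running numbers and 394 of 3824 annotated IDs were called. At 3 to 10 RPKM it was 25.8% of the running numbers and 5.73% of the annotated IDs, and at 10 to 30 RPKM 17.7% and 4.03%. Between 30 and 100 RPKM 4 of 55 running numbers were called (7.27%), against 4.12% of the annotated IDs, and from 100 to 1000 RPKM 0 of 10, against 45 of 1019. With no filter the shares were 24.67% against 5.418% at 3 to 10 RPKM and 17.09% against 3.911% at 10 to 30 RPKM. Calls leaned to higher values in the high-oil line among running numbers (56.4%) and to lower values among annotated IDs (44.0% higher). With median-of-ratios scaling these shares were 57.3% and 45.6%, and without high-oil replicate 1 they were 56.7% and 42.5%. The difference in direction between the classes was not tested.

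**Figure D3:**
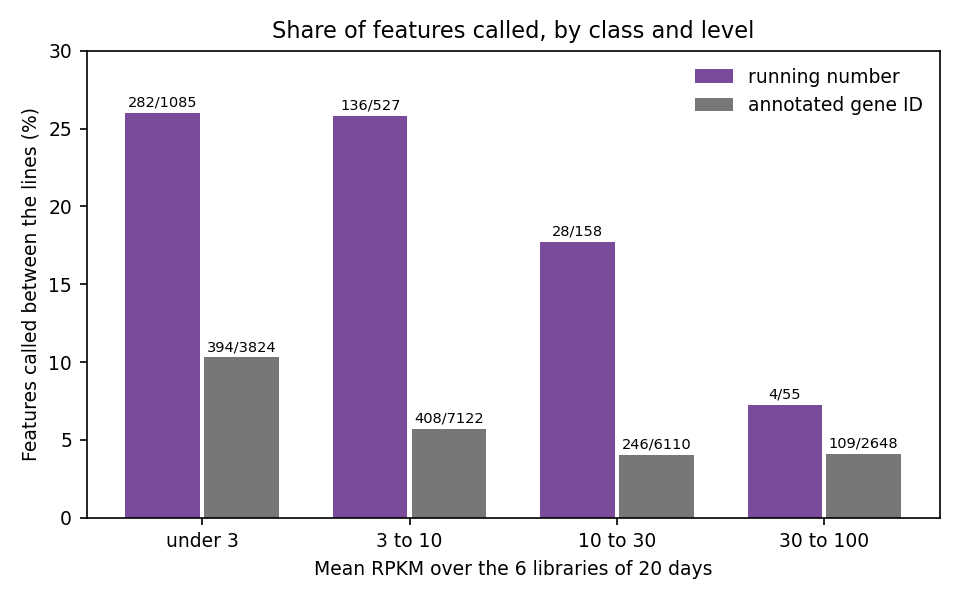
Share of the features passing the filter that were called between the lines at 20 days (y axis, percent) by mean RPKM over the 6 libraries (x axis), for features with a running number (purple) and annotated gene IDs (grey), with called over tested above each bar. The share of running numbers is above that of annotated IDs in the 4 ranges drawn, with 25.8% against 5.73% at 3 to 10 RPKM and 7.27% against 4.12% at 30 to 100 RPKM. Over all features with a read and all levels the shares were 5.267% and 3.978%.

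Noncoding RNA features with the Ensembl prefix ENSRNA also had a share above the background of 7.38%. Of 171 tested, 24 were called (14.0%), with 16 above and 8 below the low-oil line. Their median length was 96 bases, in the length range where 14.9% of all features were called. With 1 RPKM in 3 of all 36 libraries the share was 9.932%, where 1920 of all 28048 features were called. With no filter it was 5.983%, where 1847 of all 42671 were called. The split was 12 above and 11 below with a pseudocount of 0.1, and 15 above and 13 below with only the 6 libraries in the fit.

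The 2 largest rises and the 2 largest falls were all in annotated genes. The annotated gene Zm00001d025423 had 153, 192 and 196 RPKM in the high-oil libraries and 0.151, 0.219 and 0.136 RPKM in the low-oil libraries. It was 1068-fold higher in the high-oil line by the ratio of means (log2 7.27, SE 0.16, limma adjusted p 2.1e-23). The low-oil level rests on 7 reads in 3 libraries, and the ratio of pooled reads has a 95% counting interval of 519 to 2664. All 3 high-oil libraries were far above all 3 low-oil ones.

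Zm00001d024317 had 206, 283 and 289 RPKM in the high-oil libraries, against 3.16, 2.68 and 2.40 RPKM in the low-oil libraries, a 94.4-fold higher mean (log2 6.11, SE 0.34, limma adjusted p 9.7e-15). Its high-oil level was highest at 20 days. The means of that line at 15, 20 and 25 days were 102 ± 45.1, 259 ± 46.0 and 92.7 ± 6.35 RPKM, and 16.95 ± 9.70 RPKM at 40 days (SD, n = 3 each). The low-oil means stayed between 0.275 and 2.75 RPKM at the 6 ages. The line difference was therefore present at each age, and its size at 20 days did not pass the test against the mean of the other 5 ages (log2 0.78, SE 0.37, limma adjusted p 0.34).

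In the other direction, Zm00001d016085 had 0.0857, 0.0867 and 0 RPKM in the high-oil libraries and 90.4, 81.4 and 82.0 RPKM in the low-oil libraries. The fitted difference was log2 -6.34 (SE 0.23, limma adjusted p 5.1e-19), on 4 reads in the high-oil group and 6056 in the low-oil group. Its low-oil level was 131 ± 56.5 RPKM at 15 days, 84.6 ± 5.06 at 20 days, 15.8 ± 3.62 at 25 days and 7.28 ± 1.75 at 40 days (SD, n = 3 each), while the high-oil mean was at most 0.119 RPKM at any age. The high-oil line thus stayed near 0 while the low-oil mean was lower at each later age, and the difference at 20 days exceeded that at 25 days (log2 -2.44, SE 0.32, limma adjusted p 0.00022).

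Zm00001d024477 had 0.134, 0 and 0.0493 RPKM in the high-oil libraries, against 53.3, 59.96 and 84.3 RPKM in the low-oil libraries (log2 -5.95, SE 0.33, limma adjusted p 9.5e-15). Its low-oil mean was 132 ± 48.5 RPKM at 15 days, 65.9 ± 16.3 at 20 days and 27.7 ± 18.7 at 25 days (SD, n = 3 each). The high-oil mean did not exceed 0.0957 RPKM at any age. For these 4 genes the call held in every alternative setting and without any 1 of the 6 libraries.

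**Figure D4:**
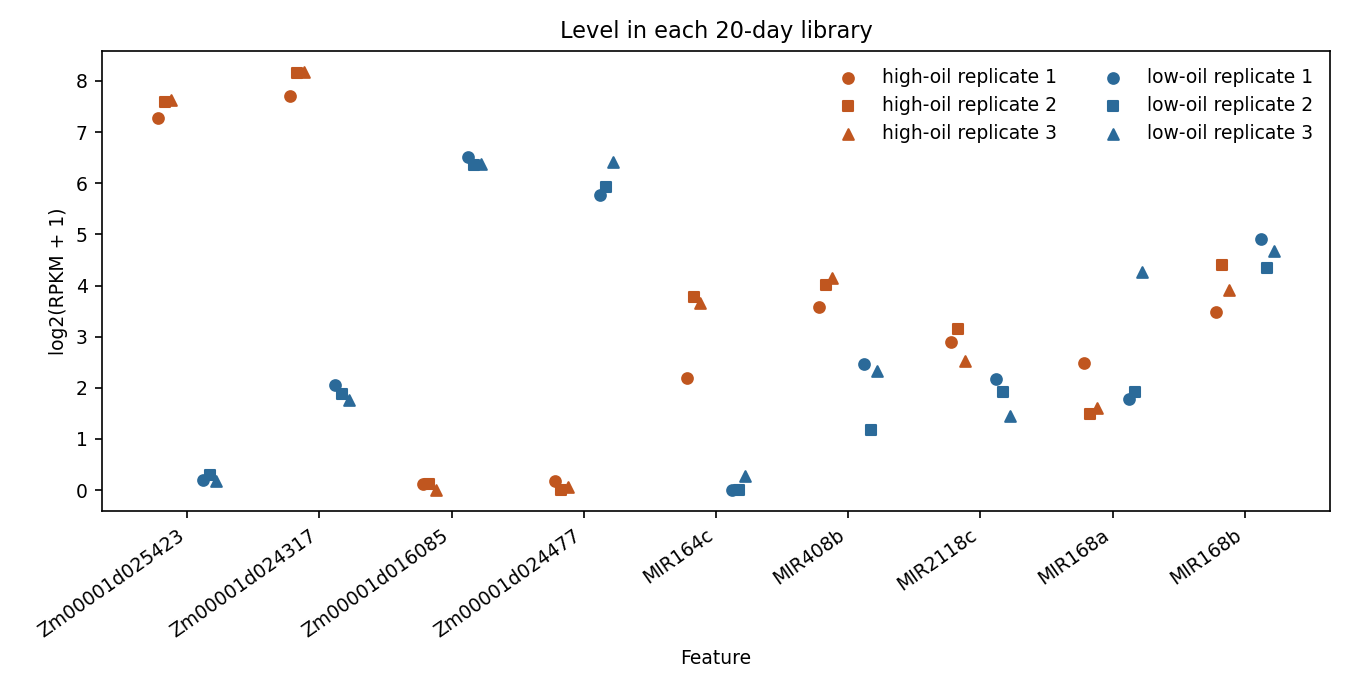
Level of 9 features in each 20-day library as log2(RPKM + 1) (y axis), high-oil in orange left of low-oil in blue, with a marker for each replicate. The lines are apart by more than 4 log2 units for the 4 annotated genes, MIR164c is near 0 in the low-oil libraries, and MIR168a is raised in 1 low-oil library only.

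Some features had no read at all in the 3 libraries of one line. This was so for 113 features without a read in the high-oil line and for 132 without a read in the low-oil line. All had at least 1 RPKM in each library of the line that held reads, which the filter on 3 of 6 libraries fixes. A limit of 3 reads was set over the group without reads. Against it, the median feature in the set of 113 was at least 115-fold lower in the high-oil line. In the set of 132 it was at least 93.8-fold higher in that line. The filter, the depth and the length of a feature set a lowest value for these folds, so the medians are no separate result. Of the 113, 42 were annotated gene IDs and 67 had a running number, and of the 132, 47 and 79. Over all 18 libraries of the line without reads, 23 of the 113 and 18 of the 132 stayed without a read, and 8 and 7 reached 1 RPKM in some library of another age.

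MicroRNA precursors are the transcripts from which short regulatory RNAs are cut. The libraries were selected for poly(A) tails, which mature microRNAs lack, so the values describe precursor transcripts. Of the 154 named precursors, 23 had a read at 20 days and 9 reached the filter. Of these 9, 1 was called higher in the high-oil line and 0 were called lower, against 3.52% and 3.86% of all features. Their median difference was -0.61 log2 units, against -0.03 over all features. The lengths recovered from the values equalled the RefSeq lengths of all 9. Mature sequences were not used here.

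MIR164c was the precursor called. Its family targets NAC transcription factor transcripts, which set organ boundaries in the plant. MIR164c had 3.55, 12.6 and 11.7 RPKM in the high-oil libraries (46, 162 and 150 reads), against 0, 0 and 0.214 RPKM in the low-oil libraries (0, 0 and 3 reads). The difference was log2 3.11 (SE 0.35, limma adjusted p 5.5e-08), and summed over libraries the reads differed 123-fold (95% counting interval 41.8 to 599). High-oil replicate 1, the library furthest along the change from 15 to 25 days, was the lowest of its group. The line difference at 20 days was above the mean of the other 5 ages (log2 1.55, limma adjusted p 0.0325), while it did not pass the test against 15 days (log2 0.26, adjusted p 0.94) or 25 days (log2 0.50, adjusted p 0.66).

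MIR408b, of a family that targets transcripts of copper proteins such as laccases and plantacyanins, had 10.9, 15.0 and 16.6 RPKM in the high-oil libraries and 4.49, 1.26 and 4.06 RPKM in the low-oil libraries. The libraries of the lines did not overlap, but the difference of log2 1.91 (SE 0.72) missed the threshold with the spread of all 36 libraries (limma adjusted p 0.092). It passed with the spread of these 6 libraries alone (adjusted p 0.0095) and of the 15-, 20- and 25-day libraries (adjusted p 0.026). MIR2118c, of a family that starts the production of phased small RNAs, had 6.42, 7.92 and 4.75 RPKM in the high-oil libraries and 3.52, 2.79 and 1.74 RPKM in the low-oil libraries, again without overlap. Its log2 difference of 1.01 (SE 0.40) also missed the threshold with all 36 libraries (limma adjusted p 0.12) and passed with these 6 alone (adjusted p 0.040) and with the ages of 15 to 25 days (adjusted p 0.033).

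The precursors MIR168a and MIR168b belong to a family that targets ARGONAUTE1 transcripts, the core of the silencing machinery. MIR168b had 10.2, 20.2 and 14.0 RPKM in the high-oil libraries and 29.1, 19.2 and 24.4 RPKM in the low-oil libraries, which overlap (log2 -0.71, SE 0.46, limma adjusted p 0.41). MIR168a had 4.61, 1.82 and 2.02 RPKM in the high-oil libraries, against 2.46, 2.78 and 18.3 RPKM in the low-oil libraries. Its log2 difference of -0.80 (SE 0.52, limma adjusted p 0.41) came from low-oil replicate 3 and was 0.01 without it (adjusted p 1.0). In both lines MIR168a was highest in the library furthest along from 15 to 25 days, high-oil replicate 1 and low-oil replicate 3. Low-oil replicate 3 stood at 52.9% of that change, against 47.4% and 50.2% for its partners. Its MIR168a value was above the low-oil 25-day mean of 9.59 ± 2.02 RPKM (SD, n = 3). MIR168b was lowest in high-oil replicate 1. Whether position accounts for these values was not tested.

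Of the other 4 precursors none was called. MIR166a, of a family that targets HD-ZIP III transcription factors, had 0, 0.890 and 0.198 RPKM in the high-oil libraries, against 1.10, 1.06 and 2.89 RPKM in the low-oil libraries, without overlap (log2 -0.97, SE 0.48, limma adjusted p 0.24). MIR156i, of a family that targets SPL transcription factors, had 0.356, 1.08 and 0 RPKM in the high-oil libraries and 3.46, 2.64 and 0 RPKM in the low-oil libraries (log2 -0.84, SE 0.46, limma adjusted p 0.29). Without low-oil replicate 3 it was called lower in the high-oil line (log2 -1.51, adjusted p 0.022). Its family member MIR156h had 18 reads in high-oil libraries and 39 in low-oil libraries (log2 -0.61, adjusted p 0.55). MIR393a, of a family that targets auxin receptor transcripts, had 7 and 18 reads (log2 -0.47, adjusted p 0.46). Between 7 and 54 reads per group stood behind these 4 precursors.

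The most abundant transcripts were mostly shared. The 10 features with the highest values of each library held 17.4%, 13.2% and 13.6% of the reads in the high-oil libraries and 11.98%, 13.5% and 13.6% in the low-oil libraries. The means were 14.7% ± 2.34 and 13.0% ± 0.910 (SD, n = 3), a difference of 1.69 percentage points (exact permutation p = 0.5, two-sided, where 3 against 3 libraries cannot go below 0.1). Without high-oil replicate 1, the highest library, the difference was 0.343 points. Together these sets held 15 features, of which 8 were among the 10 highest of all 6 libraries. The feature with the highest mean, Zm00001d002768, had 59442, 53658 and 57588 RPKM in the high-oil libraries and 51110, 54667 and 55073 RPKM in the low-oil libraries, a difference of log2 0.09 (SE 0.30, limma adjusted p 0.92).

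A mean of 1000 RPKM or more over the 6 libraries was reached by 63 features, of which 4 rose and 2 fell relative to the low-oil line, 9.52% against 7.38% of all tested. This limit and these genes were chosen after the values were seen. Zm00001d033447 had 23560, 14623 and 15128 RPKM in the high-oil libraries, against 375, 271 and 335 RPKM in the low-oil libraries (54.3-fold, log2 5.74, SE 0.33, limma adjusted p 2.9e-14). Its reads made up 2.53% of the high-oil and 0.0465% of the low-oil total. The other 3 higher genes differed by less. Zm00001d034413 was 3.62-fold higher, Zm00001d035559 was 2.58-fold higher with 2340 ± 146 against 905 ± 55.3 RPKM (log2 1.37, limma adjusted p 0.012), and Zm00001d024778 was 2.20-fold higher with 1379 ± 533 against 625 ± 178 RPKM (log2 1.09, limma adjusted p 0.032; SD, n = 3 each). The call of Zm00001d024778 was lost in 6 of 17 alternative settings. These included the fits without high-oil replicate 2 (adjusted p 0.16) or 3 (adjusted p 0.16) and without low-oil replicate 3 (adjusted p 0.19). The fit of only the 6 libraries was another (adjusted p 0.097).

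Among abundant features lower in the high-oil line, Zm00001d022089 had 1171, 1537 and 1438 RPKM in the high-oil libraries, against 4772, 5914 and 5519 RPKM in the low-oil libraries (log2 -1.97, SE 0.22, limma adjusted p 6.0e-08). Zm00001d012068 had 1062, 976 and 967 RPKM in the high-oil libraries and 2974, 3115 and 3299 RPKM in the low-oil libraries (log2 -1.64, SE 0.37, limma adjusted p 0.0019). In both genes the libraries of each line lay close together and far from those of the other.

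The abundant gene Zm00001d034413 showed a gap at the younger ages. It had 26557, 21090 and 21729 RPKM in the high-oil libraries, against 4843, 5610 and 8729 RPKM in the low-oil libraries at 20 days (log2 1.89, SE 0.39, limma adjusted p 0.00078). At 15 days the means were 2213 ± 1543 RPKM for high-oil and 208 ± 102 RPKM for low-oil embryos. The 25-day means were 45932 ± 4886 RPKM for high-oil and 44893 ± 11156 RPKM for low-oil embryos (SD, n = 3 each). The difference at 20 days did not pass the test against that at 25 days (log2 1.83, SE 0.55, limma adjusted p 0.088). When all features with a read were tested, its difference at 20 days lost its call (adjusted p 0.17).

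Zm00001d052958, whose mean over the 6 libraries was the highest after that of Zm00001d002768, did not pass the test. At 20 days it had 32539, 18904 and 19502 RPKM in the high-oil libraries, against 38462, 42718 and 43854 RPKM in the low-oil libraries (log2 -0.86, SE 0.53, limma adjusted p 0.37). The values of the lines did not overlap, and high-oil replicate 1 was the closest to the low-oil line. At 25 days the high-oil mean was 66912 ± 3338 RPKM and the low-oil mean 43857 ± 11300.3 RPKM (SD, n = 3 each). The change in the line difference between these ages did not pass the test (log2 -1.50, SE 0.75, limma adjusted p 0.31).

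The second question was how the line difference at 20 days compared with that of neighbouring ages. No library is shared between ages, but the same lines are compared at each. The calls of all ages also share the estimate of the spread of each feature and the filter on the 20-day libraries. Calls of different ages are therefore not independent. Of the 1683 features called at 20 days, 812 were called in the same direction at both 15 and 25 days. A further 178 were called in the same direction at 15 days only and 207 at 25 days only. At 25 days 12 others were called in the opposite direction, 10 of them higher in the high-oil line at 20 days. At neither age were 474 called (28.2%). For features higher in the high-oil line, the 492 called at both 20 and 15 days were 61.3% of the 20-day list and 71.2% of the 15-day list. For those lower, the 498 shared were 56.5% and 76.7%. With 25 days the shared higher features were 62.2% of the 20-day list and 71.0% of the 25-day list, and the shared lower ones 59.0% and 54.8%. At 15 days 5.88% of the features were called, 3.03% higher and 2.85% lower, and at 25 days 7.25%, 3.08% higher and 4.16% lower.

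Few features passed the test for a change in the line difference itself. Before adjustment, a limma p below 0.05 was reached by 1980 features against 15 days, 3784 against 25 days and 3139 against the other ages. A change that did not pass is therefore not shown to be absent. A value above 0 means that the log2 difference of the high-oil from the low-oil line was higher at 20 days. Against 15 days 57 features passed the interaction test (0.25% of 22801), with 21 above (0.0921%) and 36 below 0 (0.158%). Against 25 days 193 passed (0.846%), with 120 above (0.526%) and 73 below 0 (0.32%). Against the mean of the other 5 ages 226 passed (0.991%), with 109 above (0.478%) and 117 below 0 (0.513%), and 167 of them were also called between the lines at 20 days. Of the 474 features called at 20 days and at neither neighbouring age, 73 passed this test. The split for 15 days was 53 above and 32 below 0 without high-oil 15-day replicate 1, and 12 above and 8 below with a pseudocount of 0.1. The split for 25 days also depended on the scaling. Median-of-ratios scaling gave 70 above and 119 below 0. Under it the median over all features was -0.02, against 0.12 on the deposited scale. For the mean of the other ages that scaling gave 67 and 114.

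These counts were less stable than those of the line difference. For 25 days the count was 343 without high-oil 20-day replicate 1, 302 without high-oil 25-day replicate 3, and 84 to 120 without high-oil 25-day replicate 1 or 2, high-oil 20-day replicate 2 or 3, or low-oil 20-day replicate 1 or 2. For 15 days it was 28 to 36 without high-oil 15-day replicate 3, low-oil 15-day replicate 1 or 3, or any 1 of the high-oil 20-day libraries. For the mean of the other ages it was 127 to 150 without high-oil 20-day replicate 2 or 3 or low-oil 20-day replicate 2 or 3. With limma-voom on recovered reads only 2 features passed for 15 days, 80 for 25 days and 111 for the mean of the other ages.

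Zm00001d005663 was the annotated gene with the largest change against the mean of the other ages. It had 201, 76.3 and 94.9 RPKM in the high-oil libraries, against 1.45, 1.004 and 1.44 RPKM in the low-oil libraries at 20 days (95.6-fold, log2 5.64, SE 0.52, limma adjusted p 1.2e-09). High-oil replicate 1 was the highest of its group. In the high-oil line its means were 16.7 ± 12.9, 124 ± 67.2, 250 ± 36.2, 302 ± 51.2, 386 ± 80.0 and 542 ± 253 RPKM from 15 to 40 days (SD, n = 3 each). In the low-oil line they were 6.97 ± 8.05, 1.30 ± 0.254, 44.9 ± 7.06, 120 ± 30.0, 322 ± 96.7 and 311 ± 64.3 RPKM. The lines were close at 35 days, and the log2 difference was largest at 20 days. The line difference at 20 days was above the mean of the other 5 ages by log2 4.38 (SE 0.57, limma adjusted p 4.8e-05), above that at 15 days by 4.14 (adjusted p 0.0075) and above that at 25 days by 3.19 (adjusted p 0.029). The change against the other ages held in every alternative setting and without any 1 of the 36 libraries.

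The feature with running number Novel13909 was near 0 in the low-oil line at 20 days alone. It had 9.14, 14.0 and 11.2 RPKM in the high-oil libraries, against 0.0621, 0.0150 and 0.0912 RPKM in the low-oil libraries (log2 3.54, SE 0.76, limma adjusted p 0.0013). The low-oil means were 12.04 ± 1.26 RPKM at 15 days and 26.1 ± 11.3 at 25 days, where the high-oil line had 22.1 ± 2.58 and 5.65 ± 4.87 RPKM (SD, n = 3 each). The difference at 20 days exceeded that at 25 days by log2 6.02 (SE 1.07, limma adjusted p 0.0050) and the mean of the other ages by 4.93 (adjusted p 0.0018), while the test against 15 days did not pass (log2 2.72, adjusted p 0.43).

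Zm00001d023573 had the same kind of course in the low-oil line. It had 9.15, 4.18 and 4.81 RPKM in the high-oil libraries, against 0.0348, 0.0337 and 0.141 RPKM in the low-oil libraries at 20 days. This difference was only just called (log2 2.66, SE 0.89, limma adjusted p 0.0497). At 15 days the high-oil mean was 10.6 ± 2.75 and the low-oil mean 10.98 ± 4.54 RPKM, and at 25 days 1.48 ± 1.30 and 23.1 ± 10.4 RPKM (SD, n = 3 each). Its high-oil libraries also differed widely at later ages, with 12.8 ± 12.8 RPKM at 30 days and 12.2 ± 12.8 RPKM at 35 days. The change from 25 days was log2 5.99 (SE 1.26, limma adjusted p 0.015), and the change from 15 days did not pass the test (log2 2.66, adjusted p 0.55). With limma-voom on recovered reads the test against 25 days lost its call for both features (adjusted p 0.12 for Novel13909 and 0.25 for Zm00001d023573), and so did that of Novel13909 against the other ages (adjusted p 0.19).

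**Figure D5:**
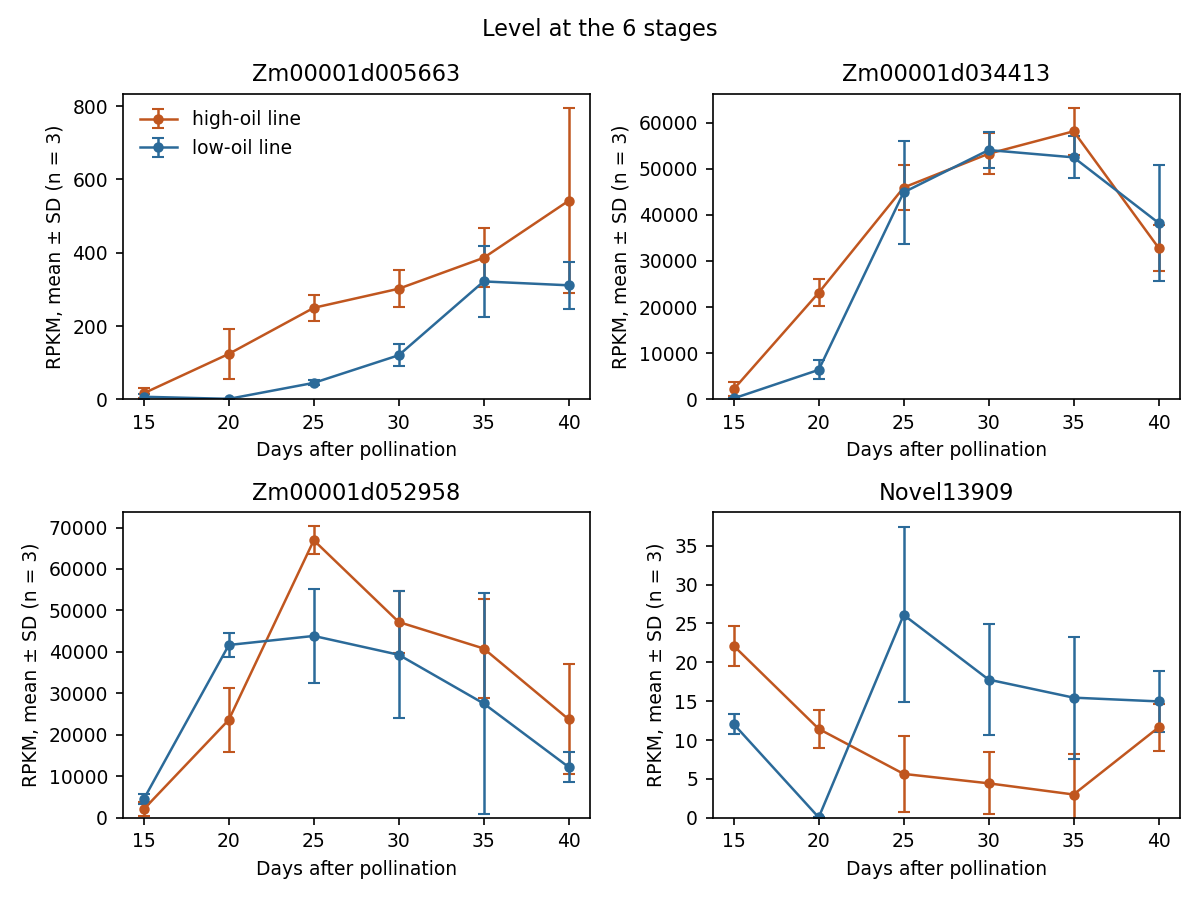
Mean RPKM ± SD (y axis, 3 libraries per point) by days after pollination (x axis) of 4 features in the high-oil line (orange) and the low-oil line (blue). Zm00001d005663 has 124 RPKM against 1.30 at 20 days and Zm00001d034413 reaches similar levels in both lines from 25 days on. Zm00001d052958 has a mean of 23649 RPKM in the high-oil line and 41678 RPKM in the low-oil line at 20 days, a difference that did not pass the test, and Novel13909 is near 0 in the low-oil line at 20 days.

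The 2 features with the largest change between 20 and 15 days were the least certain. Zm00001d024575 had 8.19, 13.9 and 9.19 RPKM in the high-oil libraries, against 16.6, 23.97 and 22.8 RPKM in the low-oil libraries at 20 days. This difference at 20 days was not called (log2 -0.97, SE 0.75, limma adjusted p 0.52). At 15 days Zm00001d024575 had 16.7 ± 7.04 and 0.0769 ± 0.0379 RPKM (SD, n = 3 each), and the change was log2 -4.94 (SE 1.06, limma adjusted p 0.035). Novel10240 had 41.7, 56.1 and 42.5 RPKM in the high-oil libraries, against 0, 0.232 and 0 RPKM in the low-oil libraries at 20 days. Its low-oil mean was 20.0 ± 5.18 RPKM at 15 days, 0.170 ± 0.0250 at 25 days and 0.130 ± 0.0735 at 30 days (SD, n = 3 each). It was not low at the later ages, with 33.0 ± 12.6 RPKM at 35 days and 24.2 ± 28.2 at 40 days. The high-oil line had 26.4 ± 2.21 and 36.8 ± 7.30 RPKM at these 2 ages. The change of Novel10240 from 15 days was log2 4.14 (SE 0.93, limma adjusted p 0.048). Both calls ended with median-of-ratios scaling (adjusted p 0.078 for Zm00001d024575 and 0.075 for Novel10240) and with limma-voom (adjusted p 0.33 for Zm00001d024575 and 0.46 for Novel10240). That of Novel10240 was lost without any 1 of the 12 libraries of 15 and 20 days, and that of Zm00001d024575 without any 1 of 11 of them, high-oil 15-day replicate 1 being the exception.

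Features that change during this interval were looked at separately, because high-oil replicate 1 lies further along it. Of the 918 features that rose from 15 to 25 days in both lines, 119 were called at 20 days (12.96% against 7.38% of all features), with the high-oil line higher in 65 and lower in 54. Without high-oil replicate 1, 44 were called higher and 90 lower, and their median line difference was -0.14 log2 units, against 0.01 with it. Of the 2293 features that fell in both lines, 20 were called higher and 61 lower (3.53%), with a median of -0.12, and without that library 29 and 48, with a median of -0.04. The direction of the line difference among rising features therefore turned on 1 library. Among the 19590 other features the counts were 717 higher and 766 lower with it and 746 and 804 without it.

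Line differences were unevenly spread over the annotated gene IDs. When the IDs were grouped by their numbers in blocks of 500, the share called ran from 0.427% to 19.5% over the 107 blocks with at least 50 tested genes, with a median of 3.96%. In the block of numbers 16000 to 16499, 31 of 159 genes were called, with the high-oil line higher for 11 and lower for 20. In the block 39000 to 39499, 1 of 234 was called. In 26 blocks the share was below 2.5% (89 of 4792 genes), and in 21 it was above 10% (502 of 3949 genes). Neighbouring blocks had similar shares, with a correlation of 0.44 over 105 pairs. The shares at 20 days followed those at 15 days (0.87 over 107 blocks) and at 25 days (0.88). The libraries of these ages are not shared, but they come from the same 2 lines. The filter on the 20-day libraries and the estimate of the spread are shared as well. These correlations are descriptions over blocks of genes, which are not independent, and the limits were chosen after the shares were seen. What orders the numbers is not given in the sources used here.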

How the data were processed

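Polyadenylated RNA of 36 embryo libraries was sequenced as paired ends, per the labels' protocols. The authors deposited RPKM values per feature and library, with 0 columns left unused. Per the submitters' processing notes, FastQC, TopHat2, Cufflinks and the build B73 RefGen_v4 were used, with no roles stated. Which tool counted, with which annotation and strand setting, is not given in the sources used here, so near-identical copies and antisense partners may share reads.

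Whole reads, totals and lengths were recovered from the values: 100% of 51853 features with a value above 0 gave whole reads within 0.0001 reads. Limits and intervals cover counting error only. The main test was limma 3.58.1 in R 4.3.3 on log2(RPKM + 1), with 12 groups, 36 libraries and a mean-variance trend. Fold changes on this scale are understated for low features. Benjamini-Hochberg adjustment covered the 22801 features with at least 1 RPKM in 3 of the 6 libraries.

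Named by rule were the 2 largest rises and falls without overlap, every tested microRNA precursor and the 2 largest changes per interaction. Members, lists and tests were chosen with earlier results of these data known. Of 44146 annotated IDs 0 matched the 49888 genes of the reference table, so the gene lists were not used. A count-based test on recovered reads was replaced by limma-voom, because the deposited unit is RPKM.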

Additional observations from a re-analysis of the deposited data

Results flagged for a closer look

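A change of the line difference with age passed the test in a minority of features. Against 15 days 57 features passed the interaction test, against 25 days 193, and against the mean of the other 5 ages 226, of 22801 tested with limma.

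In single features the change from 15 days was log2 -4.94 for Zm00001d024575 and 4.14 for Novel10240. The change from 25 days was log2 6.02 for Novel13909 and 5.99 for Zm00001d023573. Against the mean of the other ages it was log2 4.93 for Novel13909 and 4.38 for Zm00001d005663. The interaction test of the line by age singled these out. In Novel13909, Novel10240 and Zm00001d023573 the low-oil libraries were near 0 at 20 days. The high-oil means of Novel13909 and Zm00001d023573 also fell, from 11.4 and 6.04 RPKM at 20 days to 5.65 and 1.48 RPKM at 25 days.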

How the results depend on the processing

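The 1683 calls between the lines became 846 (402 higher and 444 lower) with a minimum of 5 RPKM, where 15229 features were tested, and 2648 (1480 lower) with the adjusted p alone. The 57 changes from 15 days became 36 with median-of-ratios scaling, 35 with quantile normalization, 20 when the pseudocount was 0.1 and 2 with limma-voom on recovered reads. The 193 changes from 25 days became 80 with limma-voom and 465 with only the 15-, 20- and 25-day libraries. The 226 changes against the other 5 ages became 142 with a pseudocount of 0.1, 139 with a minimum of 5 RPKM, 355 with the adjusted p alone and 111 with limma-voom. The cause was not tested. Limma-voom and the fit of 3 ages were added after the data were seen.

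Leaving out 1 library at a time gave 1522 to 1761 calls between the lines (714 to 819 higher, 799 to 942 lower), 28 to 85 changes from 15 days, 84 to 343 from 25 days and 127 to 256 against the other ages. The share of the 10 highest features differed by 0.343 to 2.47 points. Of 531 values of named features, 483 kept direction and side of the threshold, 41 lost the call, 5 gained it and 2 turned sign, MIR168a without low-oil replicate 3 (log2 0.007, within a range of -1.234 to 0.007 over the libraries left out) and Zm00001d002768 with quantile normalization (0).

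Deviations of same-numbered high-oil and low-oil libraries correlated at -0.07, 0.08 and -0.12, and those of differently numbered ones at -0.11 to 0.16. With 3 libraries per line these values cannot decide whether the replicate numbers pair the libraries. With the replicate block 1679 features were called between the lines, 53 against 15 days, 183 against 25 days and 213 against the other ages. Planned count models on recovered reads were not run. Depth limits the fold changes of features with few reads: the low-oil level of Zm00001d025423 rests on 7 reads.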

Other observations

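In the low-oil line 3 features were below 0.2 RPKM in all 20-day libraries and at 5 RPKM or more in every 15-day and 25-day library of the line. These were Novel13907, Novel13909 and Zm00001d023573. The same search found 0 features in high-oil embryos of 20 days and in either line at 25, 30 and 35 days. The opposite pattern, present at 1 age and near 0 at both neighbours, was found 0 times in the 8 searches. The limits were chosen after Novel13909 had been seen.

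All-or-none values also occurred between replicates. High-oil replicate 1 held 9 features at 5 RPKM or more that were below 0.2 RPKM in both partners, against 0, 1, 2, 0 and 0 in the other 20-day libraries. Low-oil replicate 3 was below 0.2 RPKM in 4 features that both partners held at 5 RPKM or more, against 1, 0, 1, 1 and 0 in the other libraries.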
